A study of Saccharomyces cerevisiae with 12 samples.

Results

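The genes described here are 39 nuclear genes of the mitochondrial respiratory chain and the ATP synthase of the yeast Saccharomyces cerevisiae. They were taken by name: 9 subunit genes of complex III, the cytochrome c gene CYC1, 9 subunit genes of complex IV, 4 of complex II, 3 NADH dehydrogenases, 6 genes of the F1 part of the ATP synthase and 7 of its F0 part and stator. They are 39 of the 5656 genes that could be named from the arrays, and where a gene had several probe sets the brightest on the log2 scale was used. All 39 passed the filter on dim genes and were among the 5400 genes tested.

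The respiratory chain passes electrons from NADH and succinate through ubiquinone, complex III and cytochrome c to oxygen at complex IV, and the ATP synthase uses the resulting proton gradient to make ATP. Baker's yeast has no proton-pumping complex I, and NADH is oxidised by dehydrogenases with no pump, NDI1 on the matrix side and NDE1 and NDE2 on the outer side of the inner membrane. Without oxygen the chain has no terminal acceptor, heme cannot be made, ATP comes from fermentation, and the ATP synthase can run in reverse and hydrolyse ATP. Many of these genes are known to be repressed by glucose and raised by the Hap2, Hap3, Hap4 and Hap5 activator, and some by Hap1 with heme.

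RNA was measured in anaerobic chemostat cultures of CEN.PK113-7D, a prototrophic haploid laboratory strain of mating type a that was the same in all groups. Chemostats are fed vessels whose dilution rate sets the growth rate, here 0.03 per hour in every culture. The 4 groups were carbon limitation at 12 °C, carbon limitation at 30 °C, nitrogen limitation at 12 °C and nitrogen limitation at 30 °C, with 3 arrays each from separately grown cultures. No genetic change or drug separated the groups, and the signals are averages over all cells of a culture.

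The signal is the Affymetrix intensity of a probe set, scaled so that all arrays have the same trimmed mean, and signals under 12 were set to 12. Median signals ran from 41.2 to 51.4 over the 12 arrays. Across the 5400 genes, arrays of 1 group correlated at 0.952 to 0.986, and replicate 1 of carbon limitation at 12 °C correlated at 0.972 with replicate 3 of nitrogen limitation at 12 °C, above its 0.970 and 0.969 with its own group (genes are not independent replicates). The bacterial spike-in controls averaged 317 ± 33.4 (SD, n = 3) under carbon limitation at 30 °C, against 519 ± 68.8, 531 ± 205 and 521 ± 46.4 under carbon at 12 °C, nitrogen at 12 °C and nitrogen at 30 °C. The summed signal of 7 genes of anaerobic growth was 5820 to 6377 under carbon limitation at 30 °C, 6103 to 6962 under carbon at 12 °C, 6255 to 7809 under nitrogen at 12 °C and 7758 to 8774 under nitrogen at 30 °C, so that both groups at 30 °C did not overlap. DAN1 and ANB1, the brightest of the 7, weigh most in this sum. The summed signal of 5 a-cell genes lay between 6852 and 14668, while that of 3 alpha-cell genes was 204 to 428 at 30 °C and 1136 to 2866 at 12 °C, with MF(ALPHA)1 and MF(ALPHA)2 past the threshold under both limitations. MF(ALPHA)1 was by far the brightest of the 3. The part of the spike-in, anaerobic gene and alpha-cell shifts in the results was not tested.

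Levels of the 39 genes were highest under carbon limitation at 30 °C for 35 genes, and under carbon limitation at 12 °C for the other 4, QCR8, ATP2, ATP4 and ATP20. They were lowest under nitrogen limitation at 30 °C for 28 genes, under nitrogen limitation at 12 °C for 10 and under carbon limitation at 12 °C for QCR10. With each gene centred on its own mean over the 12 arrays, the 39 genes averaged 0.73 ± 0.06 (log2, SD, n = 3) under carbon limitation at 30 °C, 0.10 ± 0.19 under carbon at 12 °C, -0.36 ± 0.10 under nitrogen at 12 °C and -0.48 ± 0.07 under nitrogen at 30 °C. The 3 arrays of carbon limitation at 30 °C lay apart from the other 9, and replicate 1 of carbon limitation at 12 °C was the highest of its group at 0.32, against 0.00 and -0.01. Each array averages over a whole culture, so that fewer cells expressing a gene and less RNA per cell cannot be told apart. Signals are also relative to the scaled array and are not amounts per cell.

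**Figure D1:**
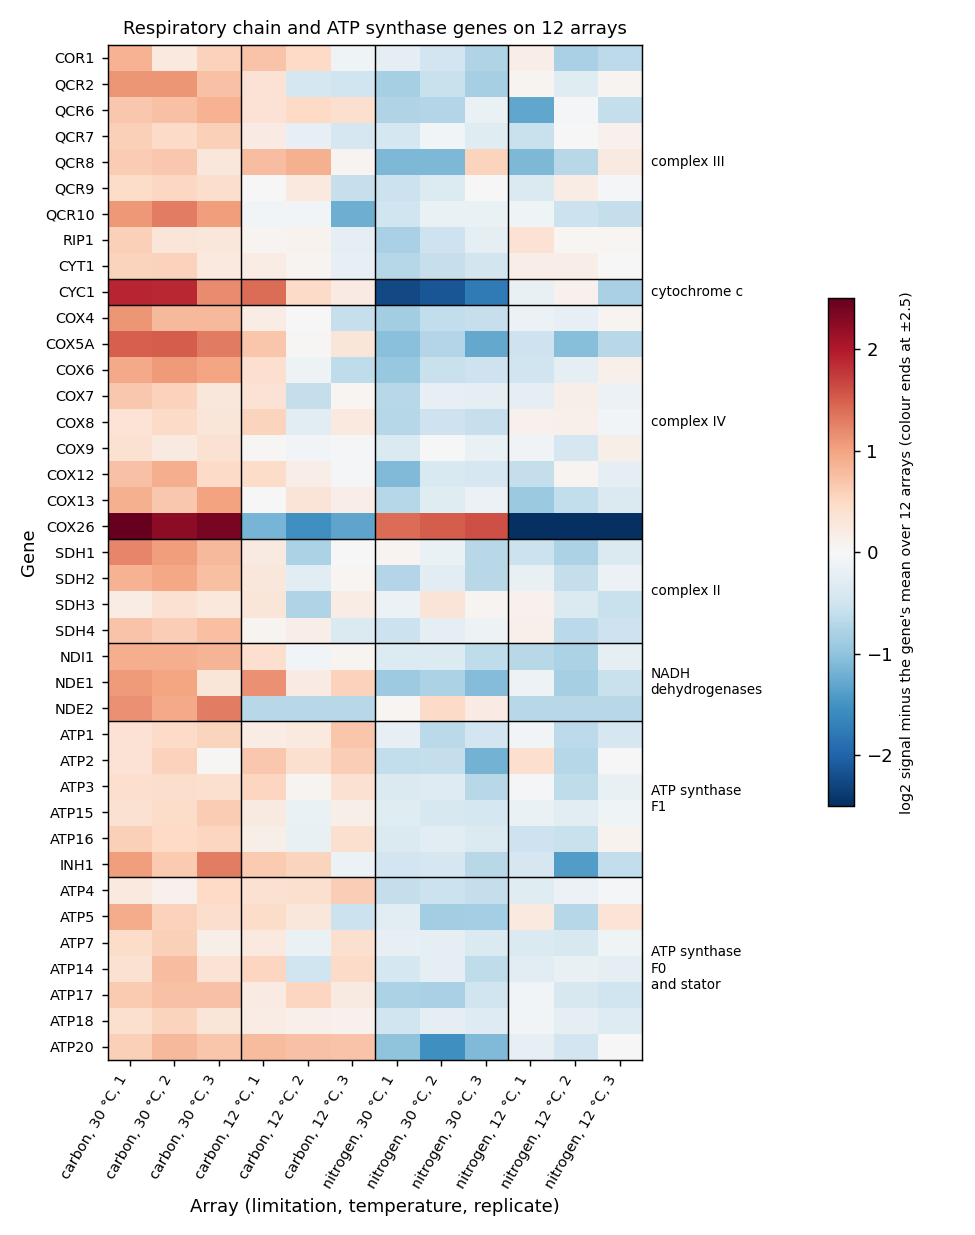
Log2 signal of each of the 39 genes minus its mean over the 12 arrays, with arrays in columns by group and genes in rows by complex; red is above and blue below the gene's mean. The 3 arrays of carbon limitation at 30 °C are red for nearly all genes, COX26 splits by temperature, and CYC1 is at its lowest under nitrogen limitation at 30 °C.

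Nitrogen limitation at 30 °C came with lower levels than carbon limitation at 30 °C almost throughout the list. By limma, 37 of the 39 genes were lower, 20 of them at least 2-fold, and none was higher, also at an unadjusted p under 0.05. Of all 5400 genes 26.9% passed, 12.6% lower and 14.3% higher, and 4.7% were lower at least 2-fold. The median of the 39 changes was -1.05 (log2) against 0.04 over all genes, and the arrays of the limitations did not overlap for 37 genes, against 51.3% of all genes. The exceptions among the calls were QCR8 (log2 -1.09, adjusted p = 0.0568) and the membrane anchor SDH3 (log2 -0.20, adjusted p = 0.584). The group with the lowest spike-in signal, carbon limitation at 30 °C, is the high group here, and the summed anaerobic genes were lowest in it and highest in the low group. Taken singly, 3 of those 7 anaerobic genes were called higher in the low group and 1, CYC7, was called lower. The part of these shifts was not tested.

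Cooling under carbon limitation lowered 16 of the 39 genes, in complexes II, III and IV, cytochrome c and the NADH dehydrogenases, with ATP15 the only ATP synthase gene among them. None rose, also at an unadjusted p under 0.05 by limma. Over all genes 25.7% passed, 12.6% lower and 13.1% higher at 12 °C. The median change of the 39 was -0.44 (12 °C minus 30 °C, log2) against 0.03 over all genes, and 35 of 39 lay below 0. Arrays of both temperatures did not overlap for 24 of them, against 43.3% of all genes. A fall of at least 2-fold was reached by 8 genes, against 6.02% of all genes. The high group is again the one with the lowest spike-in signal.

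Under nitrogen limitation the same cooling raised 9 genes, QCR2, RIP1, CYT1, CYC1, COX4, COX8, ATP2, ATP4 and ATP20, and lowered COX26 and NDE2. Over all genes 38.2% passed, 15.9% higher and 22.3% lower, so that the count of members that rose is not far above the background. The median of the 39 was 0.19 against -0.10 over all genes. Scaling moved this median both ways, to 0.05 with quantile normalization (0.01 over all genes) and to 0.34 with median scaling (0.04 over all genes), and no member that passed the threshold turned its sign under either. Arrays did not overlap between temperatures for 13 members, against 49.3% of all genes.

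The difference of these temperature changes, nitrogen minus carbon limitation, passed the threshold for 10 genes: QCR2, QCR10, RIP1, CYT1, CYC1, COX4, COX5A, COX6, SDH2 and NDE2. All 10 differences were above 0, and 37 of the 39 were, with a median of 0.68 against -0.10 over all genes. Among all genes the difference passed for 7.44%, above 0 for 2.91% and below 0 for 4.54%. No member was called below 0, also at an unadjusted p under 0.05 by limma. The call was reached by 10 of the 26 genes of the chain and by none of the 13 ATP synthase genes, of which 4 had an unadjusted p under 0.05. Median scaling raised the members called to 17, 4 of them ATP synthase genes, and over the 21 alternative settings ATP17 gained the call in 6, ATP20 in 5 and ATP5 and ATP15 in 2 each. The calls of NDE2 and QCR10 were lost in 9 and 5 of them. A difference between the chain and the ATP synthase was not tested in this or any other comparison. This comparison, the temperature change under carbon limitation and the limitation change at 30 °C all use the 3 arrays of carbon limitation at 30 °C, so that they are not independent of each other.

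At 12 °C fewer genes separated the limitations. By limma, 11 genes were lower under nitrogen than under carbon limitation, QCR6, COX5A, COX13, COX26, NDI1, NDE1, ATP1, INH1, ATP4, ATP17 and ATP20, and none was higher, also at an unadjusted p under 0.05. Over all genes 5.67% passed, 3.85% lower and 1.81% higher. The median of the 39 was -0.41 against -0.05 over all genes, 5 were at least 2-fold lower against 1.35% of all genes, and arrays did not overlap for 14 members against 21.6% of all genes. All 11 were also lower at 30 °C. These calls depended on the arrays in the fit. With only the 6 arrays at 12 °C, 0 members and 4 genes passed. Without replicate 3 of carbon or replicate 2 of nitrogen limitation 4 and 3 members did.

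**Figure D2:**
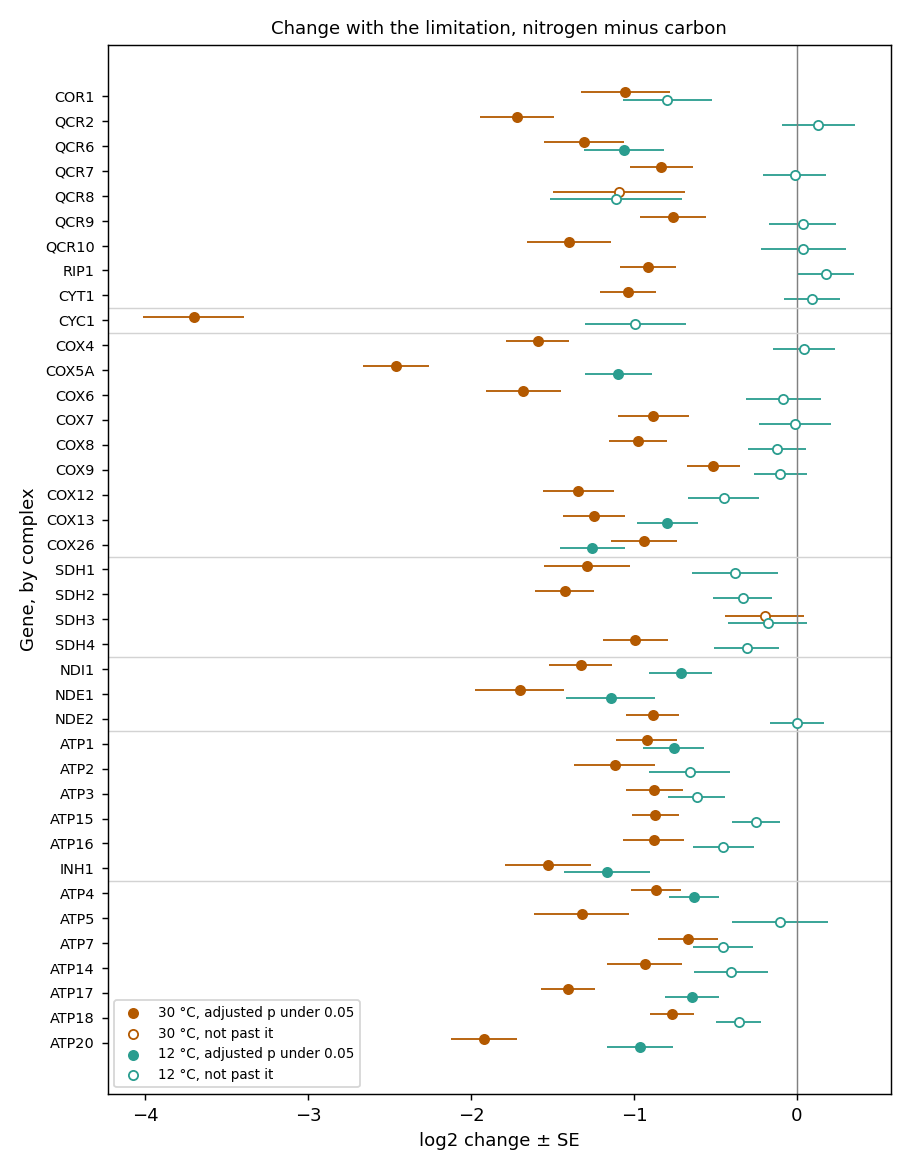
Change of each gene between limitations, nitrogen minus carbon (log2 ± SE), at 30 °C (orange) and at 12 °C (green), with filled points past an adjusted p of 0.05. The orange points lie below 0 for all 39 genes, and the green points lie nearer to 0 for all but QCR8 and COX26, from COX26 at -1.26 to RIP1 at 0.18.

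**Figure D3:**
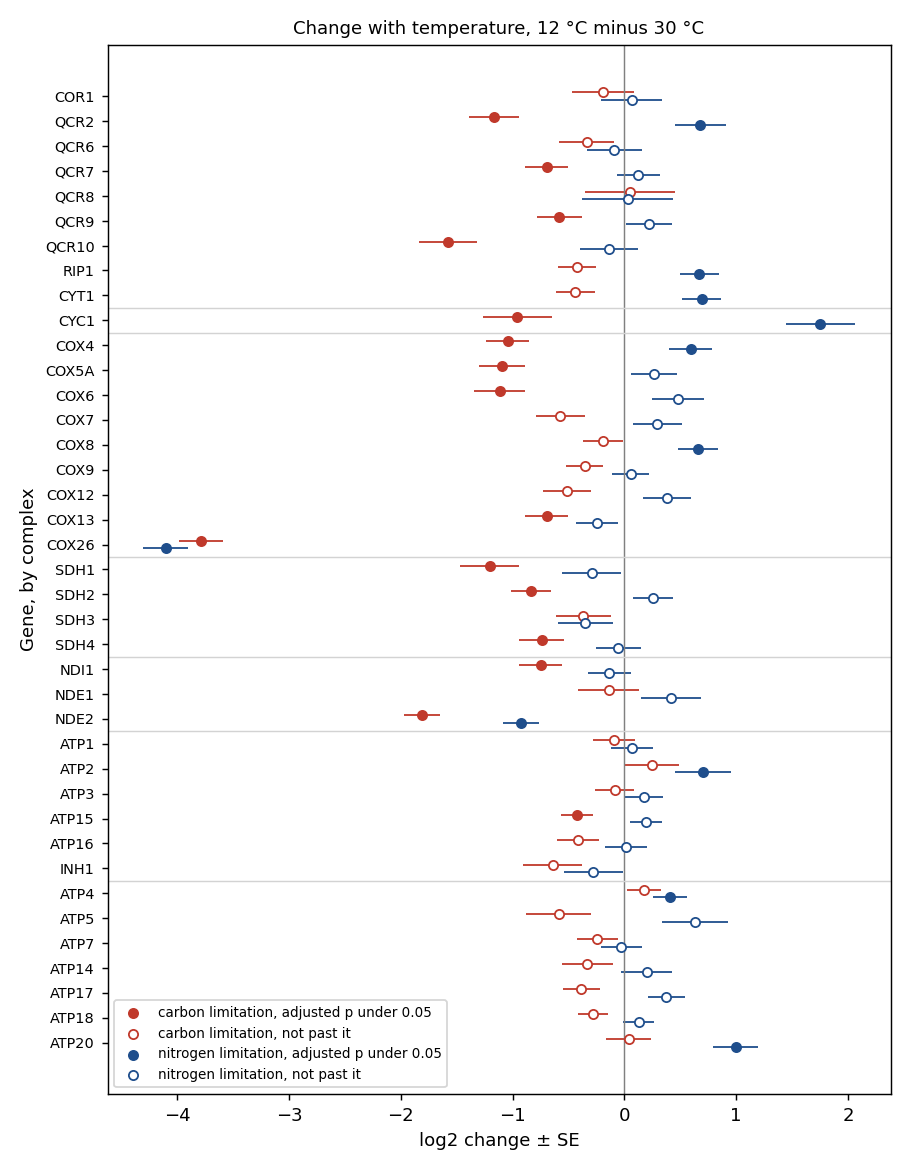
Change of each gene with temperature, 12 °C minus 30 °C (log2 ± SE), under carbon limitation (red) and nitrogen limitation (blue), with filled points past an adjusted p of 0.05. For 24 of 39 genes the red point lies below 0 and the blue point above it, while COX26 lies near -4 in both.

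Complex II feeds electrons from succinate into the chain. SDH1, its flavoprotein, read 310.3, 275 and 234 under carbon limitation at 30 °C and 158, 77.2 and 134 at 12 °C. The nitrogen-limited arrays read 140.2, 119 and 82.4 at 30 °C and 92.3, 77.1 and 105 at 12 °C. The 3 carbon arrays at 30 °C were the highest and lay clear of all others, and the nitrogen arrays of both temperatures overlapped. SDH1 fell 2.3-fold with cooling under carbon limitation (log2 -1.20 ± 0.26 SE, adjusted p = 0.00344), with no call under nitrogen limitation (log2 -0.29, adjusted p = 0.398).

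SDH2, the iron-sulfur subunit, read 1982, 2119 and 1836 under carbon limitation at 30 °C and 1332, 911 and 1121 at 12 °C. Under nitrogen limitation it read 656, 899 and 675 at 30 °C and 955, 721 and 986 at 12 °C. The carbon temperatures were apart and the nitrogen temperatures overlapped. The fall under carbon limitation (log2 -0.83 ± 0.18 SE, adjusted p = 0.003) differed from the change under nitrogen limitation (0.26) by 1.09 ± 0.25, adjusted p = 0.0155.

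SDH4, a membrane anchor, went from 1858, 1739 and 1916 at 30 °C to 1182, 1281 and 880.3 at 12 °C under carbon limitation (log2 -0.74 ± 0.20 SE, adjusted p = 0.0134). Under nitrogen limitation it read 787, 956 and 1044 at 30 °C and 1236, 712 and 795 at 12 °C, which overlap. The other anchor, SDH3, passed no comparison and averaged 769.9 ± 53.4, 627 ± 219, 676 ± 111 and 536 ± 129 (SD, n = 3) in the order carbon at 30 °C, carbon at 12 °C, nitrogen at 30 °C and nitrogen at 12 °C. At 30 °C SDH1, SDH2 and SDH4 were lower under nitrogen limitation by 2.44, 2.69 and 1.99-fold, and SDH3 was not called.

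Among the NADH dehydrogenases, the matrix-facing NDI1 read 317, 318 and 304 under carbon limitation at 30 °C and 226, 161 and 178 at 12 °C. Under nitrogen limitation it read 134, 133 and 109 at 30 °C and 104, 98.6 and 142 at 12 °C. It fell 1.68-fold with cooling under carbon limitation (log2 -0.75 ± 0.19 SE, adjusted p = 0.00971), and its nitrogen arrays overlapped.

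NDE2, an external enzyme for cytosolic NADH, was dim. It read 42.4, 37.4 and 47.1 under carbon limitation at 30 °C and 8.7, 7.4 and 2.8 at 12 °C. The nitrogen arrays read 19.9, 26.7 and 22.3 at 30 °C and 5, 2 and 6.2 at 12 °C. All 6 arrays at 12 °C were under the floor of 12, so that its falls are bounds, at least 3.51-fold lower under carbon (adjusted p = 9.6e-07) and at least 1.9-fold lower under nitrogen limitation (adjusted p = 0.000437). Its difference of temperature changes (log2 0.89, adjusted p = 0.0284) therefore reflects only the levels at 30 °C, and the call was lost in 9 of 21 alternative settings, the floor of 2 and the replicate block among them. The other external enzyme, NDE1, was not called with temperature (-0.14 under carbon, adjusted p = 0.744, and 0.42 under nitrogen, adjusted p = 0.238) but was lower under nitrogen limitation by 3.25-fold at 30 °C and 2.21-fold at 12 °C.

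Complex III carries electrons from ubiquinol to cytochrome c. QCR2, a core protein, read 428, 426 and 332 under carbon limitation at 30 °C and 257, 147 and 141 at 12 °C. Under nitrogen limitation it read 112, 135 and 112 at 30 °C and 209, 160.4 and 208 at 12 °C. The temperatures did not overlap under either limitation and moved in opposite directions, with a fall of 2.25-fold (log2 -1.17 ± 0.23 SE, adjusted p = 0.00132) and a rise of 1.6-fold (log2 0.68 ± 0.23 SE, adjusted p = 0.0257). The difference was 1.85 ± 0.32 (adjusted p = 0.00193).

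RIP1, the Rieske iron-sulfur protein, read 1178, 962 and 954 under carbon limitation at 30 °C and 813, 833 and 664 at 12 °C, and 447, 547 and 658 under nitrogen limitation at 30 °C and 997, 809 and 805 at 12 °C. CYT1, the cytochrome c1 heme protein, read 284, 288 and 228 under carbon limitation at 30 °C and 220.2, 202 and 168 at 12 °C. The nitrogen arrays of CYT1 read 118, 129.7 and 140.2 at 30 °C and 216, 216 and 195 at 12 °C. Both genes were higher at 12 °C than at 30 °C on all nitrogen arrays and lower on all carbon arrays. Their rises under nitrogen limitation passed (RIP1 log2 0.67 ± 0.17 SE, adjusted p = 0.00633). For CYT1 the rise was 0.69 ± 0.17 (adjusted p = 0.00524). Under carbon limitation the change was -0.42 for RIP1 (adjusted p = 0.0829) and -0.44 for CYT1 (adjusted p = 0.0724), and the differences were 1.09 (adjusted p = 0.0115) and 1.13 (adjusted p = 0.00967). An additional probe set for RIP1, placed on the array as a control, gave changes of -0.60 under carbon and 0.58 under nitrogen limitation.

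QCR10, a small subunit, read 575, 657 and 558 under carbon limitation at 30 °C and 261, 259 and 117 at 12 °C. The nitrogen arrays read 194, 243 and 243 at 30 °C and 254, 187 and 181 at 12 °C and overlapped with each other and with carbon limitation at 12 °C. It fell 2.99-fold under carbon limitation (log2 -1.58 ± 0.26 SE, adjusted p = 0.000343) and its difference was 1.44 ± 0.37 (adjusted p = 0.0247), a call lost in 5 of 21 alternative settings.

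QCR7, a subunit bound near cytochrome b, read 1329.6, 1227 and 1330.1 under carbon limitation at 30 °C and 1014, 765 and 661 at 12 °C. Under nitrogen limitation it read 648, 834 and 712 at 30 °C and 595, 884 and 946 at 12 °C. It fell under carbon limitation (log2 -0.69 ± 0.19 SE, adjusted p = 0.0154) and was not called under nitrogen limitation (0.12, adjusted p = 0.644). QCR9 also fell under carbon limitation (log2 -0.58, adjusted p = 0.0475), a call lost in 12 of 21 alternative settings. The other core protein COR1 and the hinge protein QCR6 were not called with temperature (adjusted p from 0.336 to 0.872) and were lower under nitrogen limitation at 30 °C by 2.08 and 2.47-fold. QCR8 was dim, between 9.2 and 48.3 with 3 arrays at the floor, and a further probe set for it lay under the floor on all 12 arrays.

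Cytochrome c shuttles electrons from complex III to complex IV, and CYC1 encodes its main isoform. It read 440.0, 430.2 and 265 under carbon limitation at 30 °C and 307, 164 and 136 at 12 °C. Under nitrogen limitation it read 24.7, 26.7 and 34.3 at 30 °C and 103, 126 and 67.2 at 12 °C. The nitrogen arrays at 30 °C were the lowest by far, while the carbon temperatures overlapped. CYC1 was 13-fold lower under nitrogen than under carbon limitation at 30 °C (log2 -3.70 ± 0.31 SE, adjusted p = 3.71e-07), the largest limitation change of the 39 genes in this fit. It rose 3.37-fold with cooling under nitrogen limitation (log2 1.75 ± 0.31 SE, adjusted p = 0.000414) and fell under carbon limitation (log2 -0.96 ± 0.31 SE, adjusted p = 0.0318), a fall lost in 6 of 21 alternative settings. The difference of 2.71 ± 0.44 (adjusted p = 0.0012) was also the largest among the members, and at 12 °C the limitation change was -0.99 (adjusted p = 0.075).

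Complex IV, cytochrome c oxidase, reduces oxygen. COX5A, the isoform of subunit V known to be used with oxygen, read 975, 978 and 852 under carbon limitation at 30 °C and 558, 352 and 424 at 12 °C. Under nitrogen limitation it read 166, 207 and 141 at 30 °C and 241, 165 and 214 at 12 °C. The carbon temperatures were apart, the nitrogen temperatures overlapped, and the nitrogen arrays lay below the carbon arrays at both temperatures. COX5A fell 2.14-fold under carbon limitation (log2 -1.10 ± 0.20 SE, adjusted p = 0.00106). It was 5.5-fold lower under nitrogen limitation at 30 °C (adjusted p = 3.71e-07) and 2.14-fold lower at 12 °C (adjusted p = 0.00687), with a difference of 1.36 ± 0.29 (adjusted p = 0.00884).

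COX4, a zinc-binding subunit, read 878, 716 and 711 under carbon limitation at 30 °C and 462, 407 and 272 at 12 °C. Under nitrogen limitation it read 224, 268 and 272 at 30 °C and 369.6, 355 and 426 at 12 °C. Like QCR2 and CYC1 it passed in opposite directions, with a fall of 2.06-fold (log2 -1.04 ± 0.19 SE, adjusted p = 0.000949) and a rise of 1.51-fold (log2 0.59 ± 0.19 SE, adjusted p = 0.0233). The difference was 1.63 ± 0.27 (adjusted p = 0.0015).

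COX6, subunit VI, read 1075, 1162 and 1098 under carbon limitation at 30 °C and 739, 507 and 359 at 12 °C. Under nitrogen limitation it read 287, 376 and 386 at 30 °C and 392.4, 476 and 604.5 at 12 °C, apart but not called (log2 0.48, adjusted p = 0.108). It fell 2.17-fold under carbon limitation (log2 -1.12 ± 0.23 SE, adjusted p = 0.00209), and the difference was 1.60 ± 0.32 (adjusted p = 0.00682). COX13, subunit VIa, read 866, 747 and 946 under carbon limitation at 30 °C and 469, 586 and 523 at 12 °C. Its nitrogen arrays read 284, 379 and 425 at 30 °C and 246, 306 and 366 at 12 °C and overlapped. It fell under carbon limitation (log2 -0.70 ± 0.19 SE, adjusted p = 0.0135) and was lower under nitrogen limitation at both temperatures.

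COX26, a small subunit of the enzyme, fell steeply with cooling under both limitations. It read 548, 399.6 and 439.5 under carbon limitation at 30 °C and 37.5, 29 and 33.6 at 12 °C. Under nitrogen limitation it read 221, 241 and 257 at 30 °C and 11.4, 15.1 and 14.8 at 12 °C, with 1 of the last arrays under the floor. Each temperature lay apart from the other under both limitations. The fall was 13.8-fold under carbon (log2 -3.79 ± 0.20 SE, adjusted p = 1.73e-09) and 17.2-fold under nitrogen limitation (log2 -4.10 ± 0.20 SE, adjusted p = 7.63e-10), and the difference between them was not called (log2 -0.32, adjusted p = 0.545). Without COX26 the median change of the 38 other genes was -0.43 under carbon and 0.20 under nitrogen limitation. COX8 rose under nitrogen limitation (log2 0.66, adjusted p = 0.0084), and COX7, COX9 and COX12 were called with temperature under neither limitation.

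**Figure D4:**
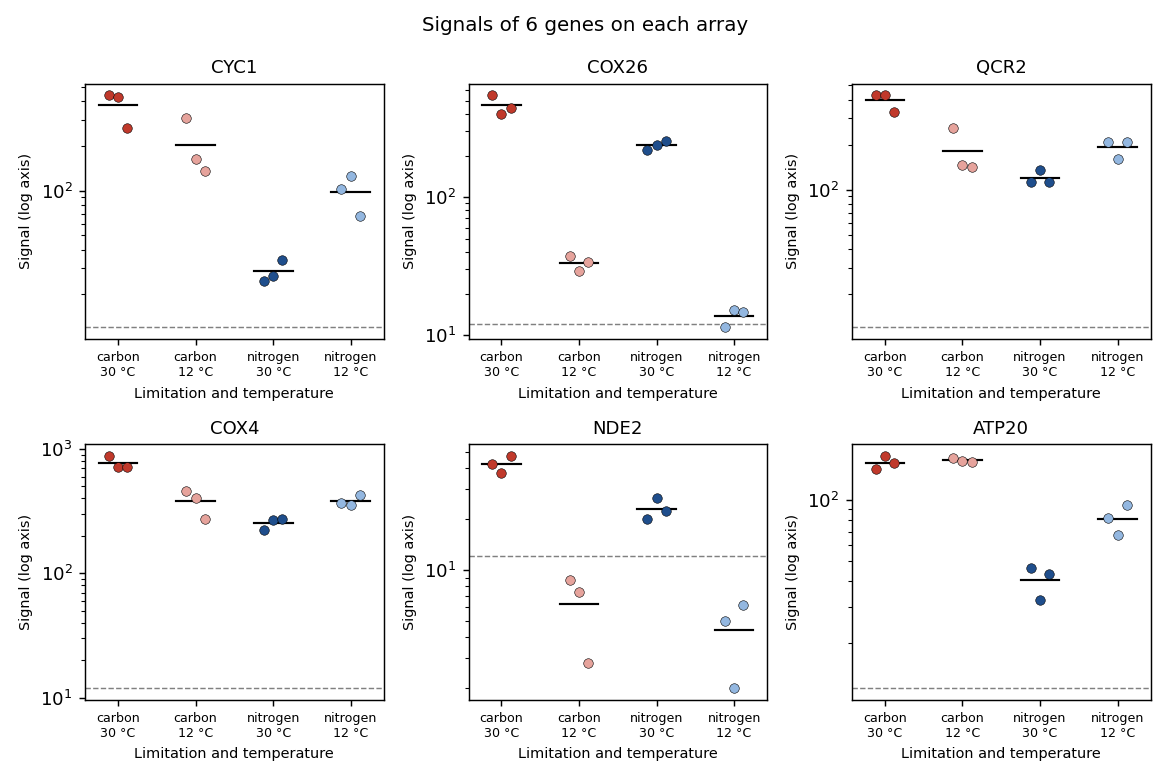
Signal on each array (log axis) of CYC1, COX26, QCR2, COX4, NDE2 and ATP20 in the 4 groups; points are arrays, bars are group means and the dashed line is the floor of 12. CYC1, QCR2 and COX4 go down with cooling under carbon and up under nitrogen limitation, COX26 and NDE2 go down under both, and ATP20 goes up under nitrogen limitation.

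Of the 13 ATP synthase genes 13 passed between limitations at 30 °C and 5 at 12 °C, and 1 and 3 passed with temperature under carbon and nitrogen limitation. Over all genes these comparisons passed for 26.9%, 5.67%, 25.7% and 38.2%. In F1, the catalytic part, ATP2 encodes the beta subunit and read 610.1, 705 and 483 under carbon limitation at 30 °C and 756, 627 and 729 at 12 °C. Under nitrogen limitation it read 309.9, 315 and 208 at 30 °C and 632, 290.1 and 478 at 12 °C. Temperatures overlapped under both limitations. Its rise under nitrogen limitation (log2 0.70 ± 0.25 SE, adjusted p = 0.0352) was lost in 6 of 21 alternative settings. INH1 encodes the protein that inhibits ATP hydrolysis by F1. It read 405, 308 and 472 under carbon limitation at 30 °C and 308, 288 and 176 at 12 °C. The nitrogen arrays of INH1 read 140.2, 146 and 120.4 at 30 °C and 146, 74.7 and 127 at 12 °C, all below the carbon arrays of the same temperature. No temperature change of INH1 passed (adjusted p = 0.0859 and 0.427), and it was 2.88-fold lower under nitrogen limitation at 30 °C (log2 -1.53 ± 0.26 SE, adjusted p = 0.000572) and 2.24-fold lower at 12 °C (adjusted p = 0.0219).

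In the stator and membrane part, ATP20 encodes subunit g, known for its role in dimers of the enzyme. It read 141, 164 and 152 under carbon limitation at 30 °C and 161, 155 and 153 at 12 °C. Under nitrogen limitation it read 46.3, 32.3 and 43.2 at 30 °C and 81.3, 67.2 and 94.1 at 12 °C. The carbon arrays overlapped, and the nitrogen arrays were apart from each other and below all carbon arrays. ATP20 rose 2-fold with cooling under nitrogen limitation (log2 1.00 ± 0.20 SE, adjusted p = 0.00126) and had a change of 0.04 under carbon limitation (adjusted p = 0.918). The difference of 0.96 ± 0.29 was not called (adjusted p = 0.0525).

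ATP4, subunit b of the stator stalk, read 467, 422 and 557 under carbon limitation at 30 °C and 512, 516 and 597 at 12 °C. Under nitrogen limitation it read 258, 269 and 261 at 30 °C and 317, 352 and 381 at 12 °C. The rise under nitrogen limitation (log2 0.41 ± 0.15 SE, adjusted p = 0.0469) was lost in 11 of 21 alternative settings. All 13 ATP synthase genes were lower under nitrogen limitation at 30 °C, with a median of -0.92, from ATP7 at -0.67 (subunit d) to ATP20 at -1.92, and 5 were at 12 °C, with a median of -0.62. In the 26 chain genes 24 were lower at 30 °C, with a median of -1.17, and 6 at 12 °C, with a median of -0.24. Under carbon limitation 15 of the 26 fell with cooling, with a median of -0.69, and 1 of the 13 ATP synthase genes did, with a median of -0.28, beside 12.6% of all genes. The difference between chain and ATP synthase was not tested. The fall of ATP15, the epsilon subunit (log2 -0.42, adjusted p = 0.0432), was lost in 13 of 21 alternative settings.

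**Figure D5:**
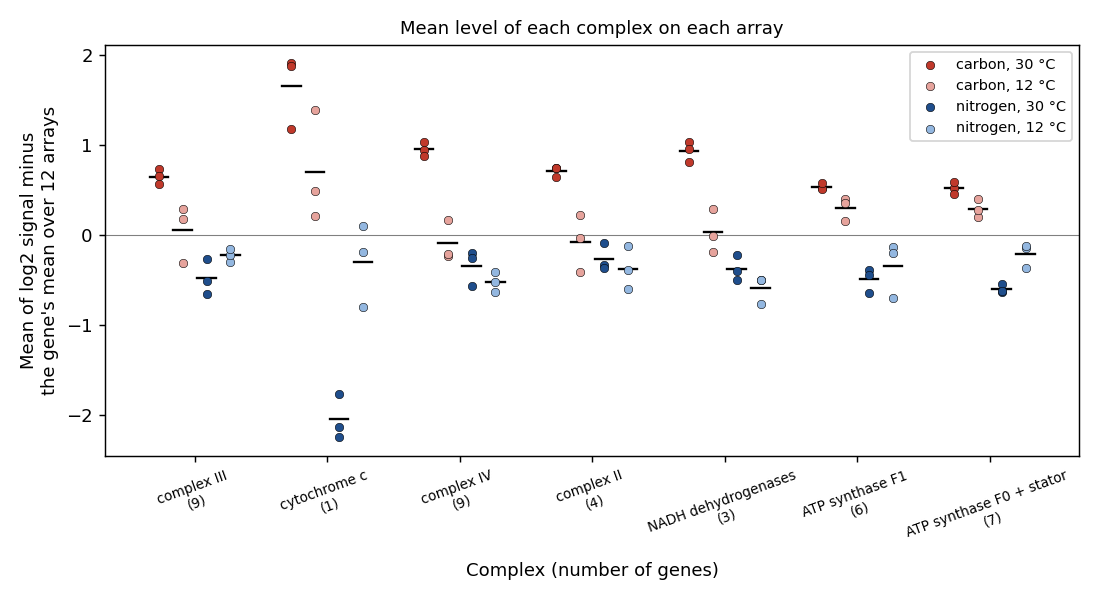
Mean centred log2 signal of the genes of each complex on each array, with the number of genes in parentheses; points are arrays and bars are group means. Carbon limitation at 30 °C is highest in each complex. The nitrogen arrays of both temperatures overlap in complexes II and III, the NADH dehydrogenases and F1, and in complex IV with COX26 included. They lie apart in cytochrome c and in F0 with the stator. The group mean is lowest under nitrogen limitation at 30 °C in complex III, cytochrome c, F1 and F0 with the stator.

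By complex, the centred level under carbon limitation at 30 °C was 0.65 ± 0.08 (log2, SD, n = 3) in complex III, 0.95 ± 0.07 in complex IV and 0.71 ± 0.06 in complex II, against 0.54 ± 0.03 in F1 and 0.52 ± 0.07 in F0 and the stator. Cooling under carbon limitation brought complex IV to -0.09 ± 0.23 and complex II to -0.07 ± 0.32, while F1 was at 0.30 ± 0.13 and F0 at 0.29 ± 0.10. Under nitrogen limitation complex III was at -0.48 ± 0.20 at 30 °C and -0.23 ± 0.07 at 12 °C, and F0 at -0.60 ± 0.05 and -0.21 ± 0.14. The level of complex IV rests on COX26: it was -0.34 ± 0.20 at 30 °C and -0.52 ± 0.11 at 12 °C under nitrogen limitation with it, and -0.57 ± 0.21 and -0.26 ± 0.11 over the other 8 genes, which turns the direction. Under carbon limitation those 8 genes were at 0.76 ± 0.07 at 30 °C and 0.07 ± 0.23 at 12 °C, a mean change of -0.70, and 7 of them had a change above 0 under nitrogen limitation, with 2 past the threshold. The NADH dehydrogenases were at -0.37 ± 0.14 at 30 °C and -0.59 ± 0.15 at 12 °C under nitrogen limitation, a level that leans on NDE2. Their changes there were -0.14 for NDI1, 0.42 for NDE1 and -0.93 for NDE2, whose arrays at 12 °C were all under the floor.

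For the lists outside the 39, the shares of all genes that rose and fell with cooling were 13.1% and 12.6% under carbon and 15.9% and 22.3% under nitrogen limitation. SHH3, a homologue of the anchor SDH3, read 287, 263 and 256 under carbon limitation at 30 °C and 28.6, 31.4 and 32.6 at 12 °C. Under nitrogen limitation it read 48.7, 50.7 and 49 at 30 °C and 52.9, 34.2 and 43.9 at 12 °C. The carbon arrays at 30 °C stood apart from the other 9. It fell 8.7-fold under carbon limitation (log2 -3.12 ± 0.20 SE, adjusted p = 2.09e-08), with a difference of 2.92 ± 0.29 (adjusted p = 9.06e-06). The other genes of this list of 8 nuclear subunits and regulators that passed with temperature were STF2, which rose under carbon limitation (log2 0.58, adjusted p = 0.0278), and RCF2, which rose under nitrogen limitation (log2 0.63, adjusted p = 0.0104). At 30 °C 6 of the 8 were lower under nitrogen limitation, beside 12.6% of all genes.

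The hypoxic isoforms are known to replace their aerobic partners when oxygen is scarce. COX5B, the hypoxic partner of COX5A, read 154, 204 and 134 under carbon limitation at 30 °C and 89.5, 81.8 and 50.8 at 12 °C. The nitrogen arrays of COX5B read 165, 162 and 203 at 30 °C and 48.5, 74.7 and 100.4 at 12 °C. It fell with cooling under both limitations (log2 -1.17, adjusted p = 0.00591 under carbon, and log2 -1.30, adjusted p = 0.00185 under nitrogen) and was not called between limitations (log2 0.12 at 30 °C, adjusted p = 0.779). CYC7, the hypoxic cytochrome c, fell under carbon limitation (log2 -1.09, adjusted p = 0.0474) and was lower under nitrogen limitation at 30 °C (log2 -1.37, adjusted p = 0.0155). Of the 7 genes, 3 were higher under nitrogen limitation at 30 °C: AAC3, the hypoxic ADP/ATP carrier (log2 1.18, adjusted p = 0.000517), AUS1 (log2 1.10, adjusted p = 0.000324) and DAN1 (log2 0.55, adjusted p = 0.0074). Over all genes 14.3% were higher there. Of the other anaerobic genes, the mannoprotein gene DAN1 rose under carbon limitation (log2 0.51, adjusted p = 0.013). The sterol importer gene AUS1 (log2 -1.38, adjusted p = 2.6e-05) and ANB1 (log2 -0.47, adjusted p = 0.0352), the hypoxic form of translation factor eIF5A, fell under nitrogen limitation. HEM13 passed no comparison (adjusted p from 0.0613 to 0.882).

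Among 10 transcription regulators of respiratory or oxygen-responsive genes, ECM22 (log2 -1.24, adjusted p = 0.000343), HAP3 (log2 -0.90, adjusted p = 0.0201), HAP2 (log2 -0.83, adjusted p = 0.0187) and HAP1 (log2 -0.63, adjusted p = 0.0489) fell with cooling under carbon limitation. Under nitrogen limitation UPC2 (log2 -1.27, adjusted p = 0.00181), ECM22 (log2 -0.93, adjusted p = 0.00226) and HAP1 (log2 -0.61, adjusted p = 0.0413) fell. HAP4, the activating subunit of the Hap complex, named after its values were seen, was the only regulator called between limitations at 30 °C. It read 259, 286 and 264 under carbon and 101, 134 and 124 under nitrogen limitation at 30 °C (log2 -1.19 ± 0.19 SE, adjusted p = 0.000372), and 252, 179.5 and 162 and 130.2, 112 and 111 at 12 °C (log2 -0.72, adjusted p = 0.042). Its arrays did not overlap between limitations at 30 °C, nor at 12 °C.

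Of the 41 tested assembly factors 6 rose and 5 fell with cooling under carbon limitation, shares near the 13.1% and 12.6% of all genes. COA4 (log2 1.32, adjusted p = 0.00971) and ATP12 (log2 1.15, adjusted p = 0.00118), needed for complex IV and for F1, rose, and COA2 (log2 -1.14, adjusted p = 0.00322) and CYC3 (log2 -1.13, adjusted p = 0.00515), the latter the lyase that attaches heme to cytochrome c, fell. Under nitrogen limitation 14 rose and 1 fell, beside 15.9% and 22.3% of all genes, with MZM1 (log2 0.92, adjusted p = 0.00164), PET117 (log2 0.90, adjusted p = 0.0477), COA4 (log2 0.89, adjusted p = 0.0491) and COX23 (log2 0.88, adjusted p = 0.012) the largest rises and COA2 (log2 -0.71, adjusted p = 0.0337) the fall. The nitrogen arrays of both temperatures overlapped for PET117 and COA4. Replicate 1 at 12 °C was the lowest of its group for both, at 91.2 and 77.6. At 30 °C 22 of the 41 were lower under nitrogen limitation and at 12 °C 10, beside 12.6% and 3.85% of all genes, with none higher (limma; none at an unadjusted p under 0.05).

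Of 10 genes for the translation or stability of mitochondrial mRNAs, PET494 (log2 0.72, adjusted p = 0.0188), CBP1 (log2 0.67, adjusted p = 0.0336), PET309 (log2 0.60, adjusted p = 0.0369) and PET54 (log2 0.53, adjusted p = 0.0478) rose under carbon limitation. PET309 was dim there, at 9.1, 15.2 and 8.5 at 30 °C, around the floor of 12, and 19.4, 26 and 15.2 at 12 °C. PET54 rose (log2 0.89, adjusted p = 0.00182) and AEP3 fell (log2 -0.98, adjusted p = 0.00276) under nitrogen limitation. For subunits encoded in mitochondrial DNA, 2 of 7 genes could be tested, and yeast mitochondrial mRNAs are known to lack the polyA tails of the RNA class measured here. COX1 read 215, 221 and 216 under carbon and 937, 482 and 81.1 under nitrogen limitation at 30 °C. At 12 °C it read 88.8, 124 and 41.1 under carbon and 28.2, 65 and 53.9 under nitrogen limitation. Its fall under nitrogen limitation (log2 -2.84, adjusted p = 0.00237) rests on a group at 30 °C whose arrays ran from 81.1 to 937. OLI1, subunit c of the ATP synthase, fell under carbon limitation (log2 -0.79, adjusted p = 0.0342).

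Among other partners of the chain, GUT2, the glycerol-3-phosphate dehydrogenase of the inner membrane, fell under carbon (log2 -1.48, adjusted p = 0.000766) and nitrogen limitation (log2 -2.02, adjusted p = 3.17e-05). The D-lactate dehydrogenase gene DLD1 fell under carbon limitation (log2 -0.59, adjusted p = 0.0145), and CYB2 was not called. Of 5 carriers, AAC1 (log2 -1.17, adjusted p = 0.00183) and the porin POR1 (log2 -0.57, adjusted p = 0.0249) fell under carbon limitation. Both fell under nitrogen limitation too (AAC1 log2 -1.04, adjusted p = 0.00264, POR1 log2 -0.82, adjusted p = 0.0018), where POR2 (log2 0.76, adjusted p = 0.0191) and PET9 (log2 0.69, adjusted p = 0.00905), the main ADP/ATP carrier, rose. Of 9 ubiquinone genes COQ1 rose under carbon (log2 0.87, adjusted p = 0.00338) and nitrogen limitation (log2 0.74, adjusted p = 0.00621). Also under nitrogen limitation COQ8 rose (log2 0.61, adjusted p = 0.0347) and COQ6 fell (log2 -0.58, adjusted p = 0.018). Of 7 heme synthesis genes limma called none under carbon limitation, with 2 at an unadjusted p under 0.05, and HEM14 fell under nitrogen limitation (log2 -1.12, adjusted p = 0.000447).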

How the data were processed

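Each of 12 arrays measured 1 culture. The values are the authors' deposited linear intensity per probe set, made with GCOS, the Affymetrix array software, per the submitters' processing notes. Neither its version nor its algorithm and scaling target is given in the sources used here. After trimming 2% at each end the mean intensity was equal on all arrays, so the deposited values had been scaled. No batch is given in the labels. Groups and replicate numbers come from the titles.

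Of 9335 probe sets 6504 were named to 1 gene by the platform annotation, 328 to several and 2503 were not listed. Intensities under 12 were set to 12, log2 was taken with no further scaling, and the brightest probe set per gene was kept. Genes above the floor on under 3 arrays were left out (256 of 5656). The floor understates folds of dim genes. Group means were fitted over all 12 arrays, which share 1 estimate of the spread, with lmFit and eBayes (intensity trend) in limma 3.58.1, R 4.3.3. P values were adjusted by Benjamini-Hochberg over 5400 genes per comparison, with a threshold of 0.05. All adjusted p values are from this test, and values after ± are SE for changes and SD (n = 3) for levels. The number of arrays limits the precision. An exact permutation test of 3 against 3 arrays cannot go below 0.1, so none is given. The fit was also run on simulated data with independent noise for each gene, which does not cover errors shared between genes.

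Members and gene lists were chosen with earlier results of these data known. Array by array values are given for the 2 members of each complex with the largest mean temperature change, for CYC1 and for every member with a called difference. From other lists up to 4 genes past the threshold per temperature comparison are named, and the hypoxic list is named whole. Alternatives were floors of 2 and 50, quantile and median scaling, no filter, the mean over probe sets, no trend, only the groups compared, a replicate block and leaving out each array.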

Additional observations from a re-analysis of the deposited data

Results flagged for a closer look

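For 10 genes the temperature change differed between limitations by the test of the difference itself. The difference, nitrogen minus carbon limitation on the log2 scale, was 2.71 for CYC1, 1.85 for QCR2, 1.63 for COX4, 1.60 for COX6, 1.44 for QCR10, 1.36 for COX5A, 1.13 for CYT1, 1.09 for RIP1, 1.09 for SDH2 and 0.89 for NDE2. In QCR2, RIP1, CYT1, COX4 and COX6 all arrays at 12 °C lay below those at 30 °C under carbon limitation and above them under nitrogen limitation. The same held for ATP15 and ATP17, whose differences limma did not call (adjusted p = 0.0809 and 0.0605). The share of all genes with this pattern was not counted. In NDE2 all 6 arrays at 12 °C were under the floor of 12.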

How the results depend on the processing

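Of 195 member results under 21 alternatives, 10 had no value with the floor of 50, where QCR8 and NDE2 did not pass the filter. Of the other 4085 values, 3882 kept their side of the threshold, 147 lost the call and 55 gained it with the same sign. Turns of sign were counted only for results called in either fit, and uncalled ones are among the 3882. There was 1 such turn: the difference of temperature changes of COX26 became 0.94 with a floor of 50, which hides its levels at 12 °C. Apart from the fits that left out an array, given below, members called changed by over 1.5 times for the difference of temperature changes with median scaling (17) and for the limitation change at 12 °C with median scaling (7), without the filter (6) and with only the groups compared (0, with 4 genes over the whole array). The cause was not tested. The median change of the members under carbon limitation was -0.55 with quantile normalization, under nitrogen limitation 0.05 with quantile normalization and 0.34 with median scaling, and the median difference was 0.83 with median scaling.

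Leaving out 1 array gave 11 to 17 members for temperature under carbon limitation, 7 to 11 under nitrogen limitation, 7 to 12 for the difference, 34 to 38 for limitation at 30 °C and 3 to 11 at 12 °C. Their medians ran from -0.56 to -0.40, 0.14 to 0.22, 0.60 to 0.75, -1.15 to -0.9998 and -0.54 to -0.32. Genes called over the whole array ran from 921 to 1690, 1624 to 2147, 246 to 480, 1015 to 1766 and 128 to 394. The lowest member counts came without replicate 3 of nitrogen limitation at 12 °C or replicate 1 at 30 °C (7 each, temperature under nitrogen), and without replicate 3 of carbon (4) or replicate 2 of nitrogen limitation (3) at 12 °C. The fewest genes for temperature under carbon (921) and for the difference (246) came without replicate 1 of carbon limitation at 30 °C. Without replicate 1 of carbon limitation at 12 °C, 16 members fell under carbon, 12 differed and 8 were lower at 12 °C.

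Up against down calls over all genes moved with scaling, from 857 and 1206 for temperature under nitrogen limitation to 1053 and 960 with quantile and 1139 and 908 with median scaling. For the difference they moved from 157 and 245 to 236 and 227 and to 250 and 180, and for limitation at 12 °C from 98 and 208 to 124 and 154 and to 142 and 154. With the replicate block 14, 10, 9, 37 and 10 members were called, in the order above. Same-numbered arrays of different groups correlated at -0.1952 to 0.1841 in their deviations, and differently numbered ones at -0.2789 to 0.3906. No pairing by number shows in these values, which cannot exclude one with a small effect.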

Other observations

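The gene ATP14 has an additional probe set, which gave changes of -0.48 under carbon and 0.24 under nitrogen limitation, against -0.33 and 0.20 in the probe set used. Actin (ACT1) probe sets gave a 3' over 5' signal ratio of 1.53 ± 0.38 and 1.55 ± 0.22 (SD, n = 3) at 12 °C under carbon and nitrogen limitation, and 1.82 ± 0.11 under both at 30 °C. The same ratio for TBP was 3.55 ± 0.54 and 2.53 ± 0.54 at 12 °C and 2.94 ± 0.38 and 3.13 ± 0.11 at 30 °C, in the same order. The ATP synthase subunit e gene TIM11, outside the 39 genes and named after its values were seen, was lower under nitrogen limitation at 30 °C (log2 -1.26, adjusted p = 6.27e-05) and at 12 °C (log2 -0.86, adjusted p = 0.0103).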
